A study of Mus musculus with 36 samples.

Results

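The 7 adrenergic receptor genes described here, Adra1a, Adra1b, Adra1d, Adra2a, Adra2b, Adra2c and Adrb1, were taken by name from a table of 52636 genes measured in the anterior cingulate cortex (aCC) of female mice. They were chosen by name, as receptors of noradrenaline and adrenaline, at a time when earlier results of these data were known. The study asked how the loss of 1 copy of Brd1, a chromatin reader gene, and the antidepressant imipramine (IMN) alter brain gene expression. Each of the 36 RNA sequencing libraries was made from a punch of the right aCC of 1 mouse of the C57BL/6NTac-Brd1 strain. Wild-type (WT) mice and litter-matched mice heterozygous for a targeted germline deletion in Brd1 (Brd1+/-) were adults and received saline (vehicle) or IMN at 10 mg/kg, giving 8 WT and 9 Brd1+/- libraries with vehicle and 10 WT and 9 Brd1+/- libraries with IMN. Injections were given on consecutive days of behavioural testing, which ended in a forced swim, and all mice, controls included, had gone through these tests shortly before the brains were taken.

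Noradrenaline reaches the cortex along fibres from the locus coeruleus and acts on 3 classes of G protein-coupled receptor. The alpha1 receptors (Adra1a, Adra1b and Adra1d) couple to Gq and phospholipase C, the alpha2 receptors (Adra2a, Adra2b and Adra2c) couple to Gi and lower cyclic AMP, and the beta1 receptor (Adrb1) couples to Gs and raises it. IMN is a tricyclic that blocks the reuptake of noradrenaline and serotonin. A loss of beta receptor binding sites from rodent cortex after repeated tricyclic treatment is a classical observation, and the question here was whether the receptor mRNAs differ after a short exposure. Binding sites were not measured.

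The values are TPM, transcript counts scaled to a fixed total per library, a level that is corrected for transcript length and can therefore be compared between genes. TPM keep no depth, so the number of reads behind each value is unknown. Brd1 itself was lower in the mutants, at 16.8 ± 2.72 TPM (SD, n = 9) against 26.4 ± 3.03 TPM (n = 8) with vehicle and at 16.8 ± 2.1 TPM (n = 9) against 23.3 ± 3.43 TPM (n = 10) with IMN (exact permutation tests, p = 8.23e-05 and 0.000325). In the limma fits used below for the receptors, the log2 fold change of Brd1 was -0.64 with vehicle (limma adjusted p = 0.0620). With IMN it was -0.45 (limma adjusted p = 0.882). The targeted gene itself thus missed the adjusted threshold of these fits in both comparisons of genotypes. The paper, using edgeR, reports Brd1 as significant after correction between the vehicle groups. The punches differed in their layer markers. The deep-layer marker score, the mean log2(TPM + 0.5) of 7 genes, ranged from 2.25 to 4.44 in 33 libraries and was 5.54 in WT IMN replicate 7, 4.99 in WT vehicle replicate 1 and 4.59 in Brd1+/- vehicle replicate 6. The last of these also had a striatal marker score of 6.46 and a choroid plexus score of 5.30, against highest scores of 3.77 and 0.82 in the other libraries. In bulk tissue, fewer cells of a type and less RNA per cell cannot be told apart.

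Adra1d was the most abundant receptor mRNA, followed by Adrb1 and Adra1b, and 6 of the 7 genes were detected in every library. Over all 36 libraries the mean level of Adra1d was 35.7 ± 7.98 TPM, that of Adrb1 was 21.4 ± 3.65 TPM and that of Adra1b was 17.7 ± 4.08 TPM. Adra2c, an alpha2 receptor that can sit on noradrenergic terminals as an autoreceptor as well as on other neurons, averaged 7.65 ± 1.32 TPM. Adra1a averaged 5.08 ± 1.27 TPM. Adra2a, which like Adra2c is found on noradrenergic terminals and on other neurons, averaged 4.73 ± 1.79 TPM. Which cells the Adra2a and Adra2c mRNA came from was not measured. Adra2b, best known from blood vessels and the thalamus, was near the limit of detection, at 0.0833 ± 0.0920 TPM, and was above 0 in 25 of 36 libraries and at or above 0.1 TPM in 13.

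Set against the 17352 genes with a median of at least 1 TPM, the median level of Adra1d stood at percentile 75.7, Adrb1 at 62.0 and Adra1b at 55.5. Adra2c, Adra1a and Adra2a stood lower, at percentiles 36.8, 28.8 and 26.3. The 7 genes summed to 92.3 ± 11.2 TPM in a library (range 66.9 to 108). Of that sum the alpha1 genes made up 63.1% ± 3.84, beta1 23.1% ± 2.54 and the alpha2 genes 13.8% ± 3.8 (SD, n = 36).

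Neighbours in this order were compared within libraries by a sign-flip permutation test of the difference in log2(TPM + 0.5). Adra1d exceeded Adrb1 in 36 of 36 libraries, by 0.71 ± 0.23 on the log2 scale (permutation p = 1e-05, the smallest the draws can give). Adrb1 exceeded Adra1b in 28 of 36 libraries, by 0.28 ± 0.41 (permutation p = 0.00042), and Adra1b exceeded Adra2c in 36 of 36. Adra2c exceeded Adra1a in 32 of 36. Adra1a and Adra2a did not differ beyond their spread (difference 0.12 ± 0.61, permutation p = 0.266), and the mean log2 difference was negative, at -0.10, in WT vehicle libraries alone. By mean TPM, Adra2a stood above Adra1a in both WT groups and below it in both Brd1+/- groups. By group means, Adra1d was first and Adra2b last in all 4 groups, while Adrb1 followed Adra1d in 3 groups and came after Adra1b in WT IMN, where Adra1b averaged 19.7 ± 4.62 TPM and Adrb1 18.8 ± 2.52 TPM.

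**Figure D1:**
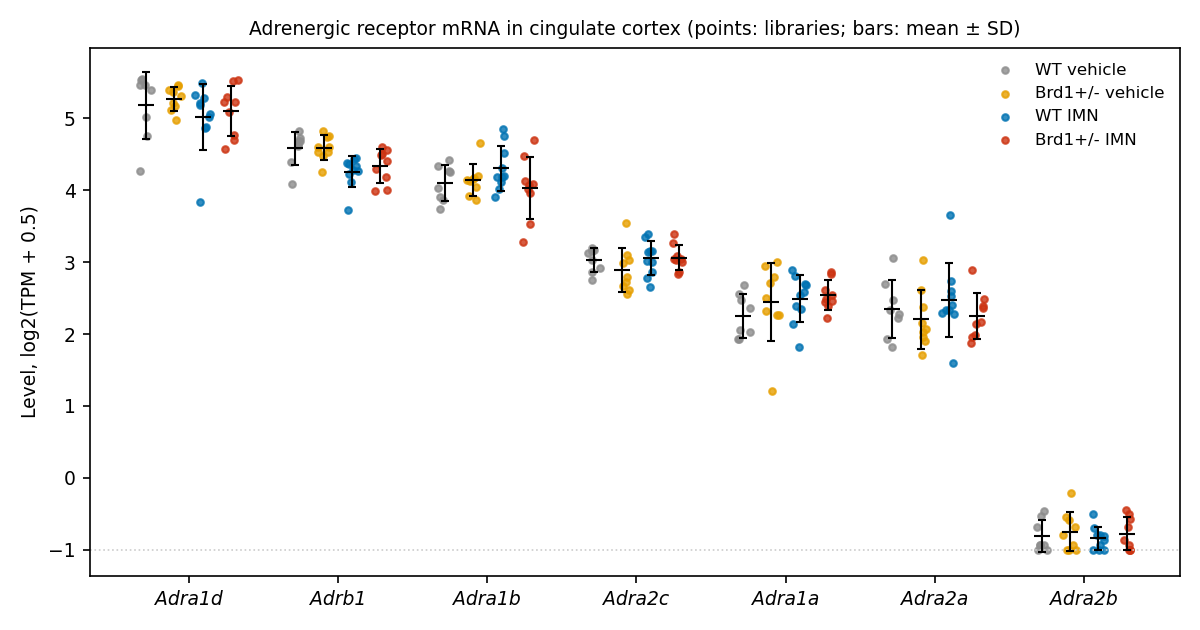
Level of each receptor as log2(TPM + 0.5) on the y axis, by gene on the x axis, with 1 point per library coloured by group and black bars for mean ± SD. Adra1d lies highest and Adra2b lowest, near -1, the position of 0 TPM marked by the dotted line; the 4 groups overlap for every gene.

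On the GRCm38 build, Adrb1 (ENSMUSG00000035283) lies on the plus strand of chromosome 19 at chr19:56722199-56733113, and Adra2a (ENSMUSG00000033717) is on the same chromosome at chr19:54044151-54048982. The coding sequence of each of these, and of Adra2b (chr2:127363208-127367221) and Adra2c (chr5:35278319-35281763), is annotated in 1 exon, so no intron divides it. The alpha1 genes are split by introns, with 2 coding exons in Adra1d (chr2:131545850-131562283) and Adra1b (chr11:43774606-43901210) and 2 to 3 in Adra1a (chr14:66635251-66771168). Whether the TPM were counted by strand is not given in the sources used here, so reads of overlapping antisense transcripts cannot be separated.

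The region before the transcription start is shown for Adrb1, because the treatment and library results below turn on this gene. RefSeq promoter windows of GRCm38.p6, 250 bases before to 50 after a start, were at hand for 5 of the 7 receptors (Adra1b with 2 starts, Adra2a, Adra2b, Adra2c and Adrb1), and not used here for Adra1a and Adra1d. The RefSeq starts differ from the gene coordinates above: that of Adrb1 lies upstream of the span given, and that of Adra2a inside it. The 250 bases before the RefSeq start of Adrb1, chr19:56721867-56722116 on the plus strand and 74.0% G or C, are printed 5′ to 3′. The cyclic AMP response element (CRE) half-site TGACG is in capitals and begins 90 bases before that start.

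Adrb1 promoter: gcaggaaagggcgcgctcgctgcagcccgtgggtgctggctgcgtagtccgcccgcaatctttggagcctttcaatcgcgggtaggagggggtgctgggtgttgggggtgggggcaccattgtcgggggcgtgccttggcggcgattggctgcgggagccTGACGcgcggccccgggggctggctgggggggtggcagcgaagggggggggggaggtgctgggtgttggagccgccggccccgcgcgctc

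The windows were searched on both strands for the full CRE TGACGTCA, its half-site TGACG (which the full element contains), the AP-1 site TGACTCA and the GC box GGGCGG. The Adrb1 window held 1 half-site and 1 GC box and matched neither of the longer motifs, and the Adra2a window likewise held 1 half-site and 1 GC box. Adra2b held 2 GC boxes, 1 Adra1b window held 1 AP-1 site, the other Adra1b window held 2 GC boxes, and Adra2c matched none of these letters. Among all 32851 windows, 20.8% held the half-site, 1.79% the full CRE, 5.2% the AP-1 site and 35.7% the GC box, so a half-site or GC box is common in windows of this length. A match is a description of letters and was not tested for binding.

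Adrb1 mRNA was lower after IMN in both genotypes, and with all libraries used it was the only one of the 7 receptors to reach an unadjusted p under 0.05 in any comparison; its adjusted p did not pass 0.05. In WT mice Adrb1 ranged from 16.5 to 27.9 TPM with vehicle (median 24.7, n = 8) and from 12.7 to 21.3 TPM with IMN (median 19.3, n = 10). All 10 IMN libraries lay below the mean of the vehicle libraries, although the groups overlapped. The level with IMN was 79.9% of that with vehicle (95% interval 68.8 to 92.8), a log2 fold change of -0.32 (SE 0.10, limma p = 0.00528, adjusted p = 0.585, exact permutation p = 0.0059). In this comparison 1 of 7 receptors reached an unadjusted p under 0.05, against 6.6% of 25572 genes tested, and by adjusted p 0 of 7 receptors and 0% of genes passed.

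In Brd1+/- mice Adrb1 ranged from 18.5 to 27.7 TPM with vehicle (median 23.7, n = 9) and from 15.3 to 23.7 TPM with IMN (median 20.8, n = 9). Of the 9 IMN libraries, 8 lay below the vehicle mean and 3 below every vehicle library. The log2 fold change was -0.25 (SE 0.10, limma p = 0.0164, adjusted p = 0.826, exact permutation p = 0.0195), or 84.0% of the vehicle level (95% interval 73.1 to 96.5). Here too 1 of 7 receptors reached an unadjusted p under 0.05, against 5.52% of all genes, and 0 of 7 passed by adjusted p, against 0.00782% of genes.

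**Figure D2:**
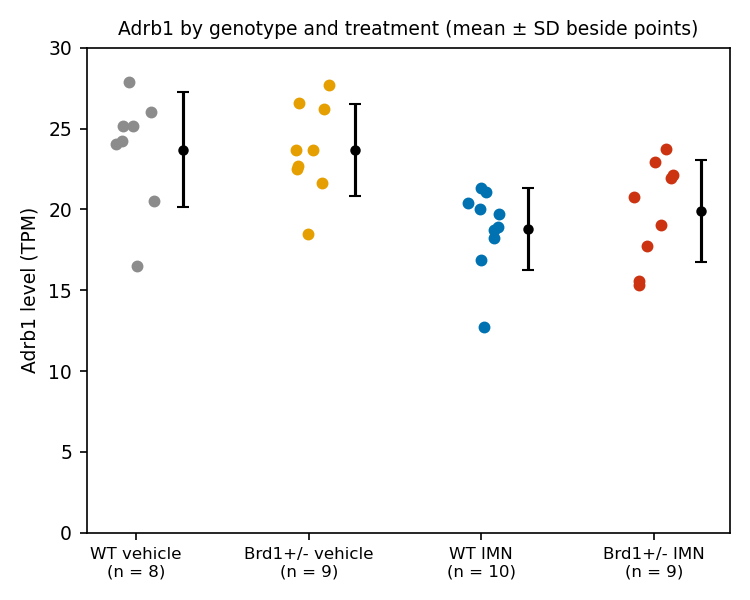
Adrb1 level in TPM on the y axis, from 0, with 1 point per library in each of the 4 groups and the mean ± SD in black beside them. The vehicle groups average 23.7 TPM in both genotypes and the IMN groups 18.8 and 19.9 TPM, with overlapping ranges.

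Over both genotypes, with genotype as a term in the fit, Adrb1 averaged 19.3 ± 2.81 TPM in 19 IMN libraries and 23.7 ± 3.10 TPM in 17 vehicle libraries. Of the IMN libraries 18 lay below the vehicle mean, and 9 of the 17 vehicle libraries lay above the highest IMN library. The log2 fold change was -0.29 (SE 0.07, 95% interval -0.43 to -0.15, limma p = 0.00022, permutation p = 0.00028), which placed Adrb1 at rank 90 of 25572 genes by p. Its adjusted p was 0.0621, so it missed the threshold that 70 genes (0.274%) passed; 1 of 7 receptors reached an unadjusted p under 0.05, against 9.38% of genes. The 2 comparisons within genotype hold the same libraries as this one and are not independent of it.

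The adjusted p of Adrb1 in this pooled comparison lay close to the threshold and moved across it with single libraries. It was 0.0137 without WT vehicle replicate 1, 0.0409 without Brd1+/- vehicle replicate 6, 0.0354 without Brd1+/- IMN replicate 7 and 0.0700 without WT IMN replicate 7, and 0.110 at its highest over the 36 fits that each left 1 library out. The log2 fold change stayed between -0.32 and -0.26 in these fits, with an unadjusted p under 0.05 in 36 of 36. Without the 3 libraries with the highest deep-layer scores, a fit added after seeing the data, it was -0.31 (limma adjusted p = 0.00373). That fit called 137 genes, against 70 with all libraries.

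Upper-layer and oligodendrocyte marker scores overlapped between treatments. The upper-layer score, over 6 genes, was 5.80 ± 0.75 with IMN and 6.02 ± 0.67 with vehicle, a difference of -0.21 with genotype as a term (permutation p = 0.395). The oligodendrocyte score, over 9 genes, was 5.29 ± 1.25 with IMN and 4.88 ± 1.02 with vehicle, a difference of 0.41 (permutation p = 0.297). For both scores the adjusted p was 0.912 over 11 marker lists. With both scores as covariates, a fit added after seeing the data, the log2 fold change of Adrb1 was -0.23 (limma adjusted p = 0.0275), against -0.29 without them. Whether the make-up of the punches contributes to the Adrb1 difference was not tested. The immediate-early score, over 12 activity-induced genes, did differ, at 5.13 ± 0.31 with IMN and 5.61 ± 0.36 with vehicle (permutation p = 0.00031, adjusted p = 0.00341 over 11 lists). That list was chosen with earlier results of these data known, so its p-value is not an independent test. The part of the immediate-early score in the Adrb1 difference was not tested.

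Genotype made no detectable difference to Adrb1. The Brd1+/- level was 100% of WT with vehicle (log2 fold change 0.01, 95% interval -0.20 to 0.21) and 106% of WT with IMN (0.08, interval -0.13 to 0.29). The response to IMN differed between genotypes by 0.07 on the log2 scale (interval -0.21 to 0.36, permutation p = 0.61).

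None of the other 6 receptors reached an unadjusted p under 0.05 with IMN in either genotype or in both together when all libraries were used (limma). With 1 library left out, a single other receptor did so in each of 3 cases: Adra1a in WT mice without WT IMN replicate 8 (0.31, p = 0.0317), Adra2c in Brd1+/- mice without Brd1+/- vehicle replicate 7 (0.25, p = 0.0191) and Adra1d over both genotypes without WT vehicle replicate 1 (-0.23, p = 0.0481), with adjusted p of 0.434 to 0.739. Among the alpha1 genes, Adra1a in WT mice ranged from 3.30 to 5.94 TPM with vehicle (median 4.16) and from 3.04 to 6.92 TPM with IMN (median 5.40), a log2 fold change of 0.24 (SE 0.15, adjusted p = 0.845). Adra1b in WT mice went from a median of 17.2 TPM (12.8 to 20.9) with vehicle to 17.8 TPM (14.4 to 28.4) with IMN. In Brd1+/- mice its median was 17.1 TPM (14.1 to 24.6) with vehicle and 16.4 TPM (9.24 to 25.5) with IMN. The Adra1b estimates thus had opposite signs in the 2 genotypes, 0.20 in WT and -0.11 in Brd1+/- mice, and the difference between them, -0.31, was within its error (SE 0.21, permutation p = 0.141).

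Adra1d had negative estimates with IMN in both genotypes, with intervals that crossed 0. Its medians were 42.6 TPM (18.7 to 46.4) with vehicle and 34.3 TPM (13.7 to 44.6) with IMN in WT mice, and 39.0 TPM (30.9 to 43.6) and 36.8 TPM (23.4 to 45.8) in Brd1+/- mice. The groups overlapped in both genotypes. Over both genotypes its log2 fold change was -0.17 (95% interval -0.41 to 0.08, limma adjusted p = 0.732). This ranged from -0.23 without WT vehicle replicate 1 to -0.10 without WT IMN replicate 7, and the estimate in WT mice alone, -0.17, was -0.03 without WT IMN replicate 7 and -0.30 without WT vehicle replicate 1. Without the 3 libraries with the highest deep-layer scores the pooled value was -0.19 (p = 0.0429, adjusted p = 0.422).

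The alpha2 genes stayed within their spread. Adra2a over both genotypes had a log2 fold change of 0.08 (interval -0.19 to 0.36) and Adra2c one of 0.10 (interval -0.06 to 0.26). In WT mice the median of Adra2a was 4.44 TPM (3.02 to 7.79) with vehicle and 4.66 TPM (2.52 to 12.1) with IMN, the highest value being that of WT IMN replicate 7. Adra2c in Brd1+/- mice had a median of 6.43 TPM (5.40 to 11.1) with vehicle and 7.73 TPM (6.64 to 9.99) with IMN, a log2 fold change of 0.17 (SE 0.12, adjusted p = 0.944). With vehicle, Adra2b had a value above 0 in 6 of 8 libraries of WT mice and in 6 of 9 of Brd1+/- mice, and with IMN in 7 of 10 and 6 of 9. It never exceeded 0.365 TPM, a level at which its fold changes, given below beside those of the other receptors, say little.

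Set beside each other within libraries, the change of Adrb1 with IMN was lower than that of each other receptor. The difference in log2 change was -0.45 from Adra1a, -0.39 from Adra2c, -0.37 from Adra2a, -0.33 from Adra1b and -0.12 from Adra1d. From Adra2b, near the limit of detection, it was -0.26. Adrb1 was singled out for this after its values were seen, so these differences are given as a description. Over all 7 receptors the median log2 fold change with IMN was 0.05, against 0.00 over all genes, with 3 receptors lower and 4 higher.

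**Figure D3:**
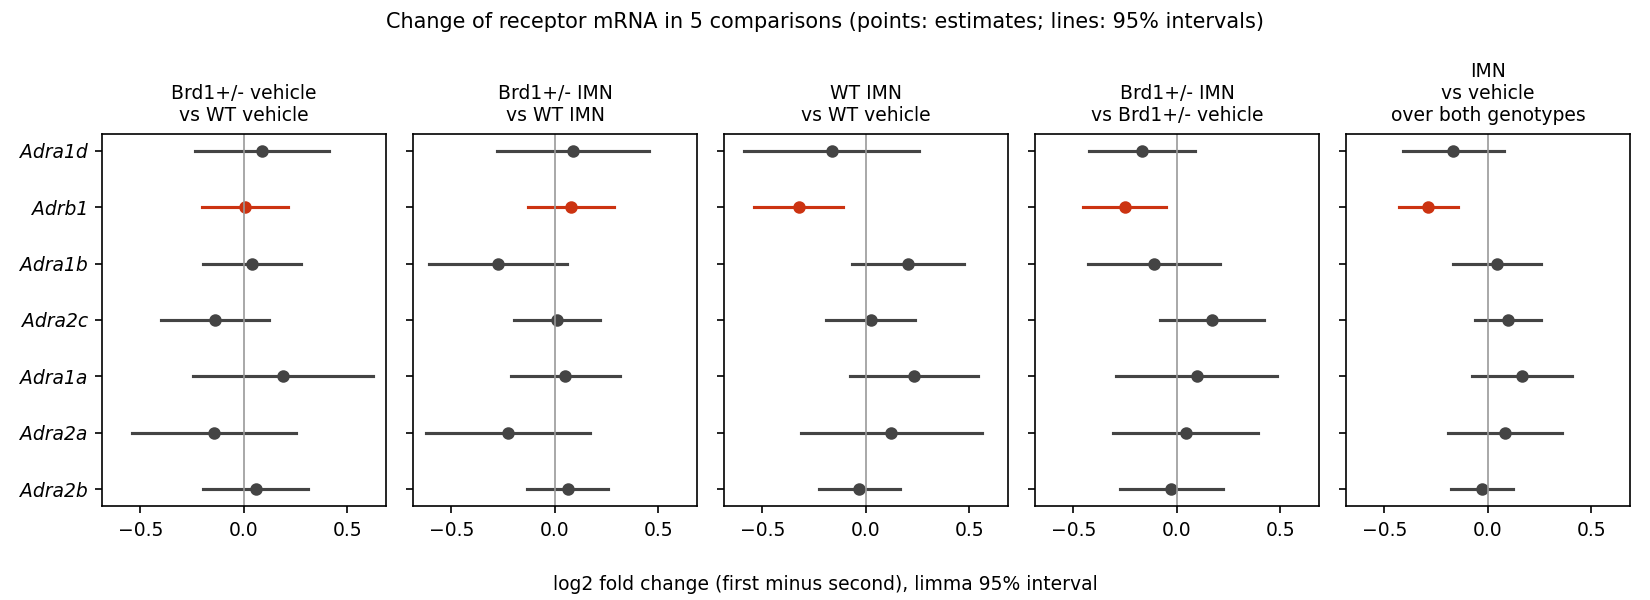
Log2 fold change of each receptor (x axis, first group minus second) in the 4 comparisons of groups and in IMN against vehicle over both genotypes, with limma 95% intervals as lines. Only the Adrb1 intervals in the 3 IMN panels, in red, leave 0 outside; every other interval crosses 0.

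Between genotypes, with all libraries used, no receptor reached an unadjusted p under 0.05 (limma), either with vehicle, where 3.75% of genes did, or with IMN, where 3.23% did; by adjusted p, 0% of genes passed in both. The largest estimates were those of Adra1b with IMN, where Brd1+/- mice had 82.7% of the WT level (log2 fold change -0.27, interval -0.61 to 0.06), and of Adra2a with IMN, at 85.6% (-0.23, interval -0.62 to 0.17). Without WT IMN replicate 7 the Adra2a estimate was -0.09. With 1 library left out, unadjusted p under 0.05 was reached by Adra1a (0.34, p = 0.0341) and Adra2c (-0.22, p = 0.0427) with vehicle without Brd1+/- vehicle replicate 7, and by Adra1b without Brd1+/- IMN replicate 4, both with IMN (-0.36, p = 0.0292) and in the interaction (-0.40, p = 0.0492), with adjusted p of at least 0.962. In the interaction of genotype and IMN, 0 of 7 receptors reached an unadjusted p under 0.05, against 3.2% of genes, and 0% of genes passed by adjusted p. The 4 comparisons of groups share libraries pairwise, so their estimates are not independent of each other. Between genotypes the targeted gene Brd1 did not pass by adjusted p either, so 0% passing is not evidence that no gene differed.

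The rest of the noradrenergic pathway was read from 53 genes in 8 lists, of which 50 passed the filter on low values. None passed an adjusted p of 0.05 in any of the 6 comparisons, and over both genotypes 5 of the 50, or 10%, reached an unadjusted p under 0.05 with IMN, 2 higher and 3 lower, near the 9.38% of all genes. In single lists, 1 of 3 tested genes of noradrenaline synthesis, storage and uptake (Slc18a2), 1 of 9 G protein alpha subunits and 1 of 7 receptor kinases and arrestins were lower, 1 of 8 adenylyl cyclases and 1 of 6 CREB factors and coactivators were higher, and none of 7 cyclic AMP phosphodiesterases, 6 protein kinase A subunits and 4 phospholipase C beta genes reached it. The median log2 fold change was -0.08 for the kinases and arrestins, which desensitise the receptors, 0.01 for the cyclases and -0.02 over all 50 genes.

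Genes of noradrenergic neurons, whose cell bodies lie in the brainstem and send only fibres to the cortex, were low or at 0 in most libraries. Slc6a2, the noradrenaline transporter that IMN blocks, was above 0 in 4 of 36 libraries, with a highest value of 0.0491 TPM. Dbh, which makes noradrenaline from dopamine, was above 0 in 12 libraries, up to 0.306 TPM, and Th, the rate-limiting enzyme of catecholamine synthesis, in 22, up to 4.26 TPM. Slc18a2, the vesicular monoamine transporter, was the only pathway gene with an unadjusted p under 0.01. It stood at 2.48 ± 0.29 TPM with IMN and 3.56 ± 0.82 TPM with vehicle in Brd1+/- mice (n = 9 each, log2 fold change -0.43, SE 0.12, limma adjusted p = 0.543) and at 2.93 ± 0.41 and 3.09 ± 0.35 TPM in WT mice.

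The receptors varied across libraries with different marker scores. Of 98 correlations over the 36 libraries, 21 between pairs of receptors and 77 between a receptor and a marker score, 16 had an adjusted p under 0.05, and all levels compared share libraries and the closed sum of TPM. Adrb1 and Adra1d varied together (r = 0.80, rho = 0.72, both permutation p = 1e-05, adjusted p = 0.000327). The relation held with group means removed (r = 0.84), without the 2 libraries farthest from the median Adrb1 level (r = 0.69) and without WT IMN replicate 7 (r = 0.72).

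Adrb1 followed the immediate-early score closely, with r = 0.77 and rho = 0.83 (both permutation p = 1e-05, adjusted p = 0.000327). Leaving out the 2 farthest libraries gave r = 0.73, and within groups, with group means removed, r was 0.66. Adra1d followed the same score less tightly, at r = 0.50 (permutation p = 0.00163, adjusted p = 0.0133) and rho = 0.50 (permutation p = 0.00236, adjusted p = 0.0231), with r = 0.37 without the 2 farthest libraries. For the other 5 receptors r with this score lay between -0.22 and 0.34, with no adjusted p under 0.05.

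**Figure D4:**
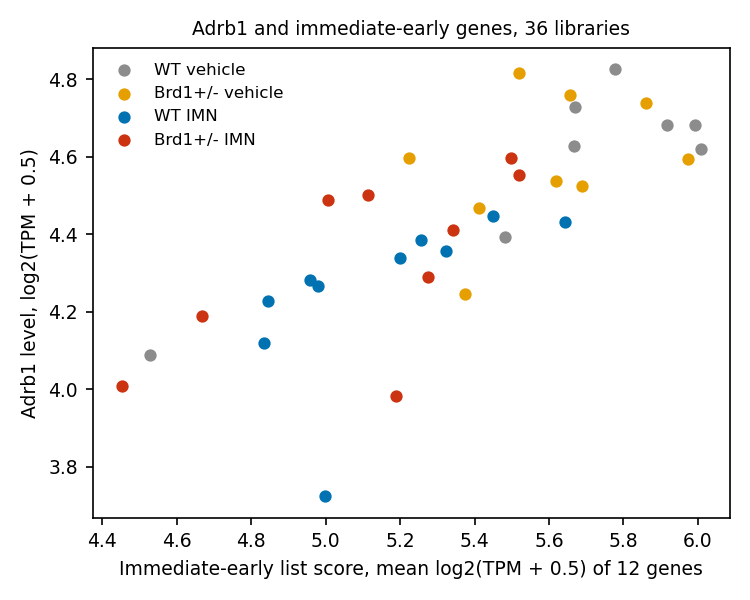
Adrb1 level, log2(TPM + 0.5), on the y axis against the immediate-early score, the mean log2(TPM + 0.5) of 12 genes, on the x axis, with 1 point per library coloured by group. The points rise together (r = 0.77), IMN libraries lie mostly at the lower left, and the lowest point is WT IMN replicate 7.

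Adrb1 and Adra1d were also higher in punches with more upper-layer and less deep-layer and oligodendrocyte signal. With the upper-layer score r was 0.65 for Adrb1 (rho = 0.65, permutation p = 6e-05 and 2e-05, adjusted p = 0.00084 and 0.000392) and 0.58 for Adra1d (rho = 0.67, permutation p = 0.00077 and 1e-05, adjusted p = 0.00686 and 0.000327). With the deep-layer score r was -0.73 for Adra1d (rho = -0.66, both permutation p = 2e-05, adjusted p = 0.00049 and 0.000392) and -0.57 for Adrb1 (rho = -0.42, permutation p = 0.00029 and 0.0108, adjusted p = 0.00316 and 0.0817). The Adrb1 relation with the deep-layer score fell to r = -0.44 (adjusted p = 0.0573) without WT IMN replicate 7. With the oligodendrocyte score r was -0.67 for Adrb1 (rho = -0.56, permutation p = 1e-05 and 0.00052, adjusted p = 0.000327 and 0.00566) and -0.55 for Adra1d (rho = -0.45, permutation p = 0.00039 and 0.00586, adjusted p = 0.00382 and 0.0479). Without the 2 farthest libraries these 6 relations kept their sign, with r of 0.59, 0.44, -0.51, -0.36, -0.55 and -0.39 in the order given.

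Adra1b had a different profile, higher where the excitatory neuron score was high and lower where the astrocyte and the endothelial and mural scores were high. Its r was 0.62 with the excitatory neuron score (rho = 0.59, permutation p = 3e-05 and 0.00023, adjusted p = 0.000588 and 0.00282), -0.64 with the astrocyte score (rho = -0.64, both permutation p = 5e-05, adjusted p = 0.000817) and -0.59 with the endothelial and mural score (rho = -0.61, permutation p = 0.00017 and 0.00014, adjusted p = 0.00208 and 0.00196). Leaving out the 2 farthest libraries gave 0.54, -0.51 and -0.52. With the other glial scores r was 0.20 for oligodendrocytes (adjusted p = 0.496) and -0.16 for microglia (adjusted p = 0.564), each by permutation. Adra1a and Adra2c had no correlation with an adjusted p under 0.05.

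The other relations with an adjusted p under 0.05 no longer had one when a particular library was left out. Adra2a ran against Adrb1 (r = -0.49, rho = -0.37, permutation p = 0.00229 and 0.0254, adjusted p = 0.0173 and 0.138) and Adra1d (r = -0.50, rho = -0.22, permutation p = 0.0028 and 0.201, adjusted p = 0.0196 and 0.401), but without WT IMN replicate 7 r was -0.31 (adjusted p = 0.253) and -0.26 (adjusted p = 0.328). Its relation with the oligodendrocyte score (r = 0.43, rho = 0.31, permutation p = 0.0081 and 0.0648, adjusted p = 0.0496 and 0.231) was 0.30 without that library (adjusted p = 0.267) and 0.40 without Brd1+/- vehicle replicate 6 (adjusted p = 0.106). Adra2b rose with the striatal score (r = 0.49, rho = 0.23, permutation p = 0.00437 and 0.176, adjusted p = 0.0285 and 0.391), and without Brd1+/- vehicle replicate 6, the library with the highest striatal score, r was 0.18 (adjusted p = 0.518).

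**Figure D5:**
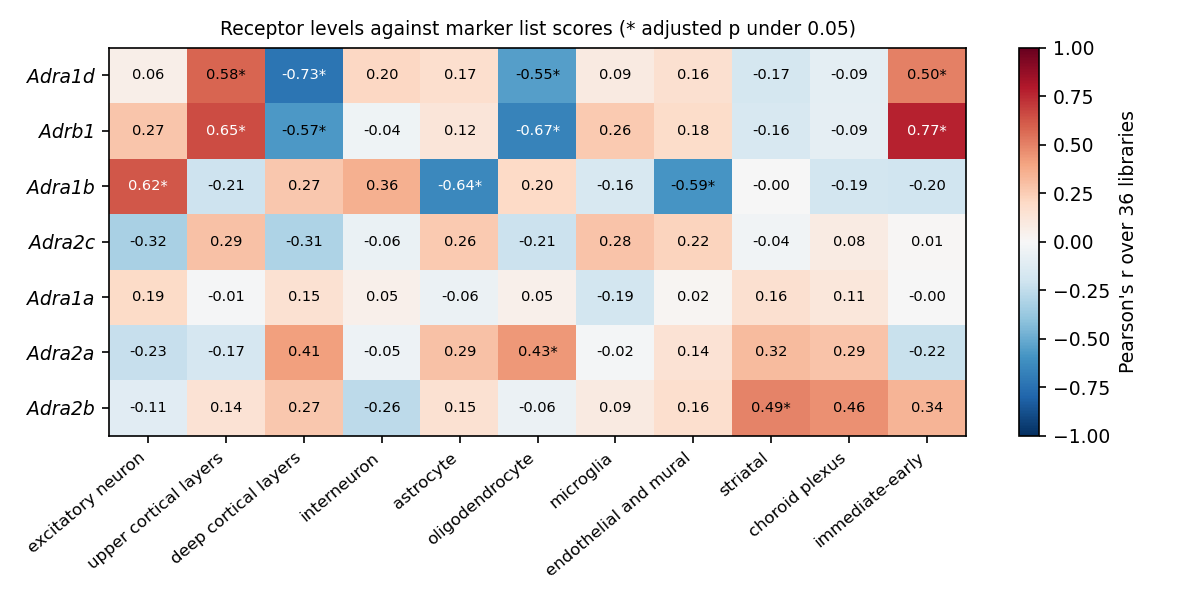
Pearson's r over 36 libraries between each receptor (rows) and each of 11 marker list scores (columns), printed in the cell and coloured from blue (-1) to red (1), with an asterisk for an adjusted p under 0.05 over 98 relations. Adra1d and Adrb1 share a row pattern of positive upper-layer and immediate-early and negative deep-layer and oligodendrocyte values, and Adra1b differs from both.

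Over the 36 libraries and 17352 genes with a median of at least 1 TPM, the 3 genes most like each receptor by Pearson's r of log2(TPM + 0.5) were listed as a description. For Adrb1 these were Bhlhe40 (r = 0.87), which encodes a transcriptional repressor, Nr4a1 (0.86), an orphan nuclear receptor gene and itself 1 of the 12 immediate-early genes, and Cyp46a1 (0.86), which hydroxylates brain cholesterol. For Adra1d they were Slc30a3 (0.89), the vesicular zinc transporter of glutamatergic terminals, Bhlhe40 (0.85) and Rgs4 (0.83), a regulator of G protein signalling. With group means removed the r of these 6 pairs lay between 0.78 and 0.89.

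The other detected receptors had other neighbours. Adra1a was closest to Faxc (0.87), Lnpep (0.86) and Map3k9 (0.85), and Adra1b to Mal2 (0.80), Ppp3r1 (0.79), a calcineurin subunit, and Met (0.78), a receptor tyrosine kinase. Adra2a was closest to Plin3 (0.78), Cplx3 (0.76), a complexin, and Snx33 (0.74). Adra2c had the weakest likeness, with Mgat4b (0.70), Pdlim4 (0.69) and Isyna1 (0.69). Adra2b, with a median under 1 TPM, was not compared.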

How the data were processed

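Per the labels, RNA was extracted from frozen punches and sequenced at BGI. The authors deposited 1 table of TPM by Ensembl gene; their processing notes name FastQC, Trimmomatic, HISAT2 2.1.0, StringTie 1.3.4 and GRCm38, and the handling of strand and of reads with several matches is not given in the sources used here. All 36 value columns were matched to samples by name (0 unmatched), and no pair of libraries was identical (0 of 630). Library depth is unknown. The labels name no batch. Libraries were taken to come from separate mice, as the study describes, so p-values measure the spread between mice.

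Of 52636 genes 52403 had a symbol in GENCODE M21. Values were taken as log2(TPM + 0.5); a fold change on this scale understates that of low genes. Each comparison was fitted with limma 3.58.1 (R 4.3.3, intensity trend, two-sided) in the groups concerned, or in all 36 libraries for the interaction and the pooled IMN effect, over the 25572 genes that reached 0.1 TPM in 8 or more libraries, and p-values were adjusted by Benjamini-Hochberg over these genes. All 7 receptors passed this filter. Single receptors were also tested by exact permutation between groups, or by 100000 permutations within genotype, two-sided. Correlations used 100000 permutations and adjustment over 98 relations. Scripts were tested on simulated data. Python 3.11.15, numpy 2.4.6, pandas 2.3.3 and scipy 1.17.1 were used.

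The receptors, the gene lists and the tests were chosen with earlier results of these data known. Named are all receptors, Brd1, Slc6a2, Dbh, Th, pathway genes with an adjusted p under 0.05 or else up to 3 per comparison with an unadjusted p under 0.01, and the 3 genes most like each receptor. Alternatives were other pseudocounts, filters and scalings, all libraries in one fit, a replicate block and each library left out; the fits with marker scores as covariates, without the 3 libraries with the highest deep-layer scores, and the correlations without WT IMN replicate 7 were added after seeing the data.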

Additional observations from a re-analysis of the deposited data

Results flagged for a closer look

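In 28 groups of libraries (7 receptors in 4 groups), the highest or lowest library was compared with the range of its group by Dixon's criterion, which marks about 1 in 20 groups by chance. It marked 5. WT IMN replicate 7 was marked for 3 receptors, with Adrb1 at 12.7 TPM and Adra1d at 13.7 TPM as the lowest of their group and Adra2a at 12.1 TPM as the highest. The same library had the highest deep-layer (5.54) and oligodendrocyte (7.50) scores of all 36. Without it, the log2 fold change of Adrb1 in WT mice was -0.26 (limma adjusted p = 0.601). Adra1b in Brd1+/- vehicle replicate 5, at 24.6 TPM, and Adra2c in Brd1+/- vehicle replicate 7, at 11.1 TPM, were marked as the highest of their groups. None of the 7 interactions of genotype and IMN had a permutation p under 0.05.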

How the results depend on the processing

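The direction of the Adrb1 difference with IMN held in both genotypes and in the pooled comparison under every alternative run; its adjusted p in the pooled comparison ranged from 0.00373 to 0.113 over 9 settings and passed 0.05 in 3. The number of receptors called there was 0 and became 1 (Adrb1) with a mean of at least 1 TPM (adjusted p = 0.0478, with fewer genes tested), with upper-layer and oligodendrocyte scores as covariates and without the 3 libraries with the highest deep-layer scores, and ranged from 0 to 1 with 1 library left out; in the other 5 comparisons it was 0 throughout. By unadjusted p under 0.05, receptors numbered 1 or 2 in the 3 IMN comparisons, 0 to 2 between genotypes with vehicle and 0 to 1 between genotypes with IMN (1 with the block, Adra1b) and in the interaction. Same-numbered libraries did not deviate together (median r of each pair of groups between -0.05 and -0.008, 1 of 34 pairs above 0.1), so no pairing by number was seen. These correlations cannot exclude a shared litter or cage. A fit with the replicate block called 0 receptors in all 6 comparisons. It gave Adrb1 -0.30 in the pooled comparison (limma adjusted p = 0.0899) and called 37 genes there in place of 70.

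Several estimates turned sign, none of them called, and the cause was not tested. With the block, the log2 fold changes were -0.013 for Adrb1 between genotypes with vehicle, -0.027 for Adra2c with IMN in WT mice and 0.076 for the Adra1d interaction. After quantile normalization Adra2c was -0.0079 between genotypes with IMN and the Adra2b interaction -0.015, and with the covariates Adra2c was -0.014 between genotypes with IMN and Adra2a -0.0048 with IMN in WT mice. Without the 3 deep-layer libraries, those between genotypes were -0.0040 (Adra1d), -0.038 (Adra2b) and -0.022 (Adrb1) with vehicle and -0.043 (Adra1d) and -0.012 (Adra2c) with IMN, Adra2b with IMN in Brd1+/- mice was 0.041 and the Adra2a interaction 0.053. With 1 of these 3 left out at a time, those between genotypes with vehicle ranged from -0.041 to 0.13 (Adra1d), -0.065 to 0.048 (Adrb1) and -0.010 to 0.030 (Adra2b), those with IMN in WT mice from -0.016 to 0.045 (Adra2c) and -0.0071 to 0.22 (Adra2a), the interactions from -0.13 to 0.13 (Adra1d) and -0.18 to 0.050 (Adra2a) and Adra2b in the pooled comparison from -0.042 to 0.0043, while Adra1d (-0.043) and Adra2c (-0.012) between genotypes with IMN turned without WT IMN replicate 7 and Adra2b with IMN in Brd1+/- mice (0.041) without Brd1+/- vehicle replicate 6. With any 1 library left out, 17 of 42 estimates changed sign in at least 1 fit; those not yet named reached, with IMN in Brd1+/- mice, -0.058 (Adra1a) and -0.036 (Adra2a), between genotypes -0.023 (Adra1a, IMN) and -0.024 (Adra1b, vehicle), with IMN in WT mice 0.018 (Adra2b) and in the interaction -0.045 (Adra2b). Adra1a minus Adra2a was -0.095 in WT vehicle libraries alone.

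Over all genes, the pooled comparison called 70, from 37 with the block to 137 without the 3 deep-layer libraries, and 35 to 170 with 1 library left out (170 without WT vehicle replicate 1, which also raised the WT count from 0 to 32). In Brd1+/- mice IMN called 2 genes and 0 to 1 under alternatives, and between genotypes with vehicle 0 became at most 2. Scaling moved the split of unadjusted calls: between genotypes with vehicle from 313 higher and 646 lower to 487 and 533 after quantile normalization, between genotypes with IMN from 505 and 321 to 412 and 452, with IMN in WT mice from 518 and 1169 to 866 and 953, and in the interaction from 558 and 260 to 397 and 429. Correlations with an adjusted p under 0.05 numbered 14 to 17 under alternatives, against 16. Without read counts, no test could weigh libraries by depth.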
